A study of Homo sapiens with 16 samples.

Results

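BTG1, BTG2, BTG3, TOB1, TOB2, ZFP36, ZFP36L1 and ZFP36L2 encode adaptors that bring mRNAs to the enzymes that shorten their poly(A) tails. They were followed in 2 human myeloma cell lines after knockdown of KANSL2, a subunit of the NSL histone acetyltransferase complex. The 8 genes, of 28277 gene symbols in the expression tables, were chosen by their family symbols with the knockdown and control values known, among them the low BTG2 and ZFP36 levels of the INA6 knockdown. Their own differences are therefore given as a description, without tests. BTG4 was not among the chosen genes, and its mean was 0.57 in INA6 and −1.97 in JJN3, both below the minimum mean of 3 that a gene needed to be tested.

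INA6 is a myeloma line that grows on interleukin 6, and JJN3 is a line from a plasma cell leukaemia. In each line, cells carried CRISPR interference, in which a dead Cas9 fused to a repressor domain lowers transcription of the guide's target, with a guide against KANSL2 (knockdown) or a non-targeting guide (control). All cells of both arms thus carried the repressor system, and the labels give them as otherwise untreated. Poly(A) RNA was sequenced in 3 libraries for each of the 4 groups, and 4 chromatin accessibility libraries of JJN3 were not analysed here. Whether libraries of a group came from separate cultures, how many guides were used and the time between transduction and RNA harvest are not stated in the labels. The p-values below therefore reflect how far the libraries of a group lie apart, a spread that may be technical.

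BTG and TOB proteins share a domain that binds CNOT7 and CNOT8, the deadenylases of the CCR4-NOT complex, and TOB proteins also bind the poly(A)-binding protein. ZFP36 proteins bind AU-rich elements in mRNAs of cytokines, growth regulators and early response genes through paired zinc fingers, and recruit the same complex. In lymphocytes BTG1 and BTG2 are known for keeping resting cells quiescent, and ZFP36L1 and ZFP36L2 for restraining the cell cycle during B cell development. BTG2 and ZFP36 are also textbook early response genes, and BTG2 is a p53 target.

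Promoters are shown for BTG2, ZFP36 and BTG1, which had lower levels in the knockdown of both lines. They are also shown for BTG3 and TOB2, which had higher mean levels in both. These members were called in the same direction in both lines by the threshold given below. That choice sets only what is shown, and nothing is read from it. The INA6 calls of BTG1 and BTG3 were lost in some of the alternatives given below. The sequences are the 250 bases before the annotated start, 5′ to 3′ on the gene's strand, from RefSeq on GRCh38.p14. They lie at chr1:203305269-203305518 on the plus strand for BTG2, chr19:39406597-39406846 on the plus strand for ZFP36, chr12:92145847-92146096 on the minus strand for BTG1, chr21:17612902-17613151 on the minus strand for BTG3 and chr22:41446802-41447051 on the minus strand for TOB2. Capitals mark matches, on either strand, to any of the motifs searched.
BTG2: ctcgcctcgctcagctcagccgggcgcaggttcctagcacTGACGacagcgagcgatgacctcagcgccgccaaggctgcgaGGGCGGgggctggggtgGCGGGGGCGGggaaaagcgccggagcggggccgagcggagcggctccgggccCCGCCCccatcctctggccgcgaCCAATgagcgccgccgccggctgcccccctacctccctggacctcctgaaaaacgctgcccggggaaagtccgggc
ZFP36: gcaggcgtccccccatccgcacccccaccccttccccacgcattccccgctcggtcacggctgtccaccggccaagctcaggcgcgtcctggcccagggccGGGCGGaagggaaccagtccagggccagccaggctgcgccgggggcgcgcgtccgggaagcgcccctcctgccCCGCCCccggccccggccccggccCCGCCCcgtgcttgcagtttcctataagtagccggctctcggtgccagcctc
BTG1: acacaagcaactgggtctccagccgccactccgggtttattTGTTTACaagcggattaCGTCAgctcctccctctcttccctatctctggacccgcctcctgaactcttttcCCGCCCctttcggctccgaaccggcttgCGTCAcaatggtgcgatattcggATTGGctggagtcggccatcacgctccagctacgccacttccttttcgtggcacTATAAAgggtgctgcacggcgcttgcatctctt
BTG3: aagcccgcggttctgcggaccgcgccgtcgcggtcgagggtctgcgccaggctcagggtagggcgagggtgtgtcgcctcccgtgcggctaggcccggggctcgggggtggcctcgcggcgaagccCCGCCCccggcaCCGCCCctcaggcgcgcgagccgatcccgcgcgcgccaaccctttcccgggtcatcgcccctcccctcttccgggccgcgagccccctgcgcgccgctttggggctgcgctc
TOB2: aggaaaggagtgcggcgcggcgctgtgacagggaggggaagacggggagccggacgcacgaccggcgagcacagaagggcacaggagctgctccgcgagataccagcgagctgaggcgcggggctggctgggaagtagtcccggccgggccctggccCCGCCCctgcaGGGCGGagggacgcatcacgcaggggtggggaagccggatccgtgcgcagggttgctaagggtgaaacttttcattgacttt

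Of the 8 genes, 7 had a promoter in the RefSeq table of 35116 promoters, and TOB1 and ZFP36L1 had 2 each, so 9 member promoters were searched. The GC box GGGCGG was in 6 of the 9 member promoters (6 members) and in 42.6% of all promoters. CCAAT was in 4 of the 9 (4 members) and 32.0% of all promoters, and the CRE half-site TGACG in 5 of the 9 (4 members) and 21.2%. The EGR site GCGGGGGCG was in 4.72% of all promoters and, among members, only in BTG2, at −151, where it overlaps a GC box. BTG1 had a TATAAA at −33, found in 10.7% of all promoters, and a FOXO site GTAAACA at −209, found in 2.98%. The full CRE TGACGTCA, which holds TGACG on each strand, was at −52 of the second ZFP36L1 start and in 1.65% of all promoters. No member promoter held the E-box CACGTG (6.34% of all promoters), the AP-1 site TGACTCA (4.20%), the STAT site TTCNNNGAA (6.57%), the SRF CArG box (1.16%), the NF-kappaB site (5.21%) or the p53 half-site (5.57%) in these windows. The GC share of the member promoters ran from 38.4% at the first TOB1 start to 80.4% at its second, against a median of 58% over all promoters.

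Levels below are rlog values, which are log2 values of size-factor scaled counts shrunk towards each gene's mean. The 2 lines were normalised in separate tables, so a level in INA6 beside one in JJN3 is a description. A rise or fall is relative to the other genes of the table, and in bulk samples fewer cells of a type and less RNA per cell cannot be told apart. KANSL2 itself had control values of 8.06, 8.02 and 8.16 and knockdown values of 7.71, 7.60 and 7.76 in INA6. Its knockdown minus control difference was −0.39 (SE 0.0625, limma adjusted p = 3.06e-05), which is 76.4% of the control level. In JJN3 its control values were 7.25, 7.24 and 7.19 and its knockdown values 6.00, 5.98 and 6.06, a difference of −1.21 (SE 0.0559, adjusted p = 1.48e-16), which is 43.1%. The target was thus lower in every knockdown library, with a smaller rlog difference in INA6. All 10 plasma cell markers had a mean of at least 3 in both lines, and their summed level was 122.7 to 123.1 in control and 119.0 to 120.3 in knockdown libraries of INA6, and 113.1 to 113.8 against 115.0 to 115.4 in JJN3. These sums hold markers that moved apart: in INA6 7 fell and 2 rose, with JCHAIN at −0.89, PRDM1 at −0.72 and SLAMF7 at −0.71 against IRF4 at 0.29 and CD38 at 0.25, and in JJN3 6 rose and SDC1 fell by 0.50. Of 5 markers each, 2 B cell, 2 T cell, 1 myeloid and 0 stromal markers reached a mean of 3 in INA6, and 2, 1, 1 and 0 did in JJN3. MS4A1 and FCGR3A were listed at 0 in INA6, and CD3D, CD3G, LYZ, FCGR3A, PDGFRB and DCN in JJN3, where the B cell marker MS4A1 rose from 5.85 to 6.48. A low rlog value does not show absence in these tables. The part of these marker shifts in the differences below was not tested.

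BTG2 and ZFP36 had the largest differences of the 8 genes in both lines, both lower in the knockdown. BTG1 was also lower and BTG3 and TOB2 higher in the knockdown mean of both lines, while TOB1 and ZFP36L2 were lower in INA6 and higher in JJN3. In INA6, 2 members passed the limma threshold upwards and 5 downwards, and ZFP36L1 did not pass. In JJN3, 4 passed upwards and 4 downwards. Over all 12511 genes tested in INA6, 48.6% were called (24.7% higher, 24.0% lower) at an adjusted p below 0.05, and over the 12282 of JJN3, 51.0% (25.5% higher, 25.5% lower). All 8 members passed the minimum mean in both lines. The knockdown contrast chose the members, so nothing is read from these counts. The median member difference was −0.18 in INA6 and −0.05 in JJN3, beside medians of 0.000936 and 0.00104 over all genes tested. Centring each library on its median changed the split of called genes from 3084 higher and 3000 lower to 3904 and 2400 in INA6, and from 3135 and 3129 to 3768 and 2571 in JJN3, and shifted the median gene by 0.04 and 0.03.

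**Figure D1:**
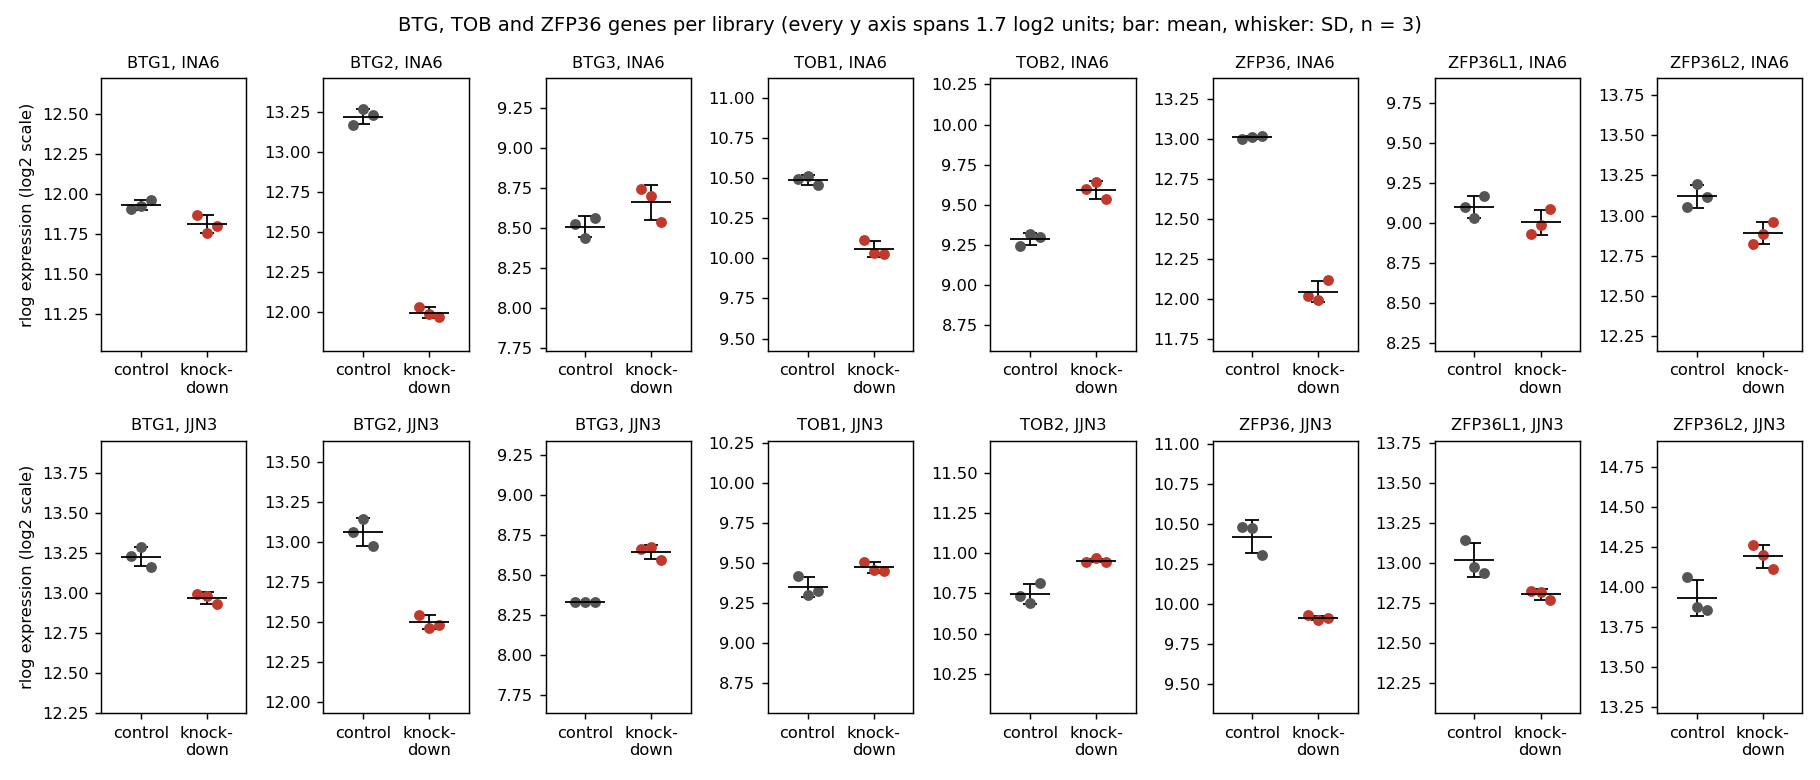
The rlog level (log2 scale) of each of the 8 genes in each library, by line and arm, with a bar at the mean and a whisker of 1 SD over 3 libraries; each axis has its own range of the same length. BTG2 and ZFP36 separate widely between arms in both lines, and BTG3 and ZFP36L1 overlap between arms in INA6.

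BTG2 (chr1:203305519-203309602, GRCh38.p14), an antiproliferative deadenylase adaptor, had control values of 13.17, 13.27 and 13.23 in INA6 and knockdown values of 12.03, 11.99 and 11.97. Every knockdown library lay at least 1.14 below every control library. The mean went from 13.2 ± 0.0489 (SD, n = 3) to 12.0 ± 0.0322 (SD, n = 3), which is −1.22 (SE 0.0407) or 42.8% of control, the 7th largest fall among the genes tested in INA6. In JJN3 its control values were 13.06, 13.15 and 12.98 and its knockdown values 12.55, 12.46 and 12.48. The arms again did not overlap, with a gap of 0.429. The JJN3 mean went from 13.1 ± 0.0853 (SD, n = 3) to 12.5 ± 0.0437 (SD, n = 3), which is −0.56 (SE 0.0418) or 67.6% of control, the 83rd largest fall in that line. The fall on the rlog scale was 2.17 times as large in INA6 as in JJN3, a difference between lines of −0.66 that was not tested, since the INA6 fall was among the values that chose the genes.

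BTG1 (chr12:92140278-92145846), the close relative of BTG2 that is often mutated in B cell lymphoma, had INA6 control values of 11.90, 11.93 and 11.96 and knockdown values of 11.87, 11.76 and 11.80. The arms were apart by only 0.0358. The difference was −0.12 (SE 0.0422), or 91.9% of control. In JJN3 the control values were 13.23, 13.29 and 13.16 and the knockdown values 13.00, 12.98 and 12.93. The gap there was 0.168 and the difference −0.26 (SE 0.0394), or 83.6% of control. The INA6 call of BTG1 was lost with median centring (−0.09), without a variance trend and when control replicate 2 (−0.12), control replicate 3 (−0.11) or knockdown replicate 2 (−0.10) was left out, and with quantile normalisation its difference was −0.19. The JJN3 call held in all 12 alternatives.

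BTG3 (chr21:17593653-17612901) had INA6 control values of 8.52, 8.43 and 8.56 and knockdown values of 8.74, 8.70 and 8.54, so knockdown replicate 3 lay within the control range. Its INA6 difference was 0.15 (SE 0.0606), or 111% of control, and the gene was no longer called when control replicate 1 (0.16), control replicate 2 (0.12), knockdown replicate 1 (0.11) or knockdown replicate 2 (0.13) was left out, and with no minimum mean. In JJN3 all 3 control values were 8.33, and the knockdown values were 8.66, 8.67 and 8.59. The JJN3 difference was 0.31 (SE 0.0492), or 124% of control, with no overlap between arms.

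TOB1 (chr17:50862223-50867978), which also binds the poly(A)-binding protein, had INA6 control values of 10.50, 10.51 and 10.46 and knockdown values of 10.11, 10.03 and 10.03. All knockdown libraries lay below all controls, with a difference of −0.43 (SE 0.0455) or 74.2% of control. In JJN3 the order was the opposite, with control values of 9.42, 9.30 and 9.33 and knockdown values of 9.51, 9.46 and 9.45. The JJN3 difference was 0.12 (SE 0.0460), or 109% of control, and the arms were apart by 0.0321. It was not called after quantile normalisation (0.10) or when control replicate 2 (0.10), control replicate 3 (0.11), knockdown replicate 1 (0.10) or knockdown replicate 2 (0.13) was left out, though the difference stayed above 0 in all 12 alternatives. The INA6 minus JJN3 difference of TOB1 was −0.55 and was not tested.

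TOB2 (chr22:41433494-41446801), the paralog of TOB1, had INA6 control values of 9.24, 9.32 and 9.30 and knockdown values of 9.60, 9.64 and 9.53. In JJN3 its control values were 10.73, 10.69 and 10.82 and its knockdown values 10.95, 10.97 and 10.95. Knockdown libraries were above control libraries in both lines. The difference was 0.31 (SE 0.0498) or 124% of control in INA6, and 0.21 (SE 0.0415) or 116% in JJN3, where quantile normalisation gave 0.11. TOB1 and TOB2 therefore moved in opposite directions in INA6 and in the same direction in JJN3. The related rows of the tables were low: the pseudogene TOB2P1 had means of 2.85 and 2.77 in INA6 control and knockdown and 4.62 and 4.55 in JJN3, and the antisense gene TOB1-AS1 had 3.18 and 3.16, and 2.79 and 2.68. The sources used here do not say whether the counting used strand, so reads of TOB1 and its antisense partner may not be told apart.

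ZFP36 (chr19:39406847-39409407), also called tristetraprolin and known for the decay of TNF mRNA, had INA6 control values of 13.00, 13.01 and 13.02 and knockdown values of 12.02, 11.99 and 12.12. The gap between arms was 0.879. The mean went from 13.0 ± 0.00964 (SD, n = 3) to 12.0 ± 0.0664 (SD, n = 3), which is −0.96 (SE 0.0416) or 51.3% of control, the 27th largest fall in INA6. In JJN3 the control values were 10.49, 10.48 and 10.31 and the knockdown values 9.93, 9.90 and 9.91, again without overlap. The difference there was −0.51 (SE 0.0461), or 70.3% of control, the 132nd largest fall. The INA6 fall was 1.89 times the JJN3 fall on the rlog scale, a difference between lines of −0.46 that was not tested.

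ZFP36L1 (chr14:68787655-68796243) had INA6 control values of 9.10, 9.03 and 9.17 and knockdown values of 8.93, 8.99 and 9.09, which overlap. Its INA6 difference was −0.10 (SE 0.0555), and it passed the threshold only without knockdown replicate 3 (−0.14). It was −0.06 with median centring, without control replicate 3 and without knockdown replicate 1. The control mean was 9.10 in INA6 and 13.0 in JJN3, in separately normalised tables. In JJN3 the control values were 13.14, 12.98 and 12.94 and the knockdown values 12.83, 12.82 and 12.77. The arms did not overlap there, with a difference of −0.21 (SE 0.0435) or 86.2% of control.

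ZFP36L2 (chr2:43222402-43226606) had INA6 control values of 13.05, 13.19 and 13.12 and knockdown values of 12.82, 12.89 and 12.96. In JJN3 it had 14.06, 13.87 and 13.86 in control and 14.26, 14.20 and 14.11 in knockdown libraries. The arms did not overlap in either line but lay in opposite order, by gaps of 0.0911 and 0.0491. The difference was −0.23 (SE 0.0449) or 85.2% of control in INA6, and 0.26 (SE 0.0462) or 120% in JJN3, where quantile normalisation gave 0.14. TOB1 and ZFP36L2 were the 2 members whose arms were apart in both lines in opposite directions. Over the 11137 genes tested in both lines, 5.53% showed that pattern. In INA6 55.2% and in JJN3 56.1% of all genes tested had arms that did not overlap, as did 6 and 8 of the 8 members.

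**Figure D2:**
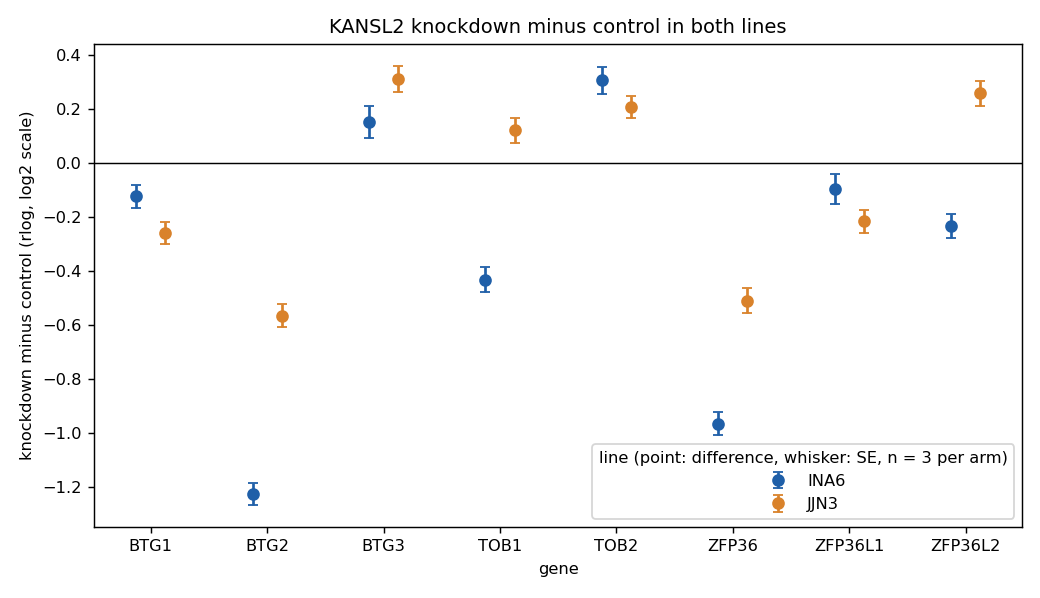
Knockdown minus control difference in rlog level (log2 scale) of each gene, with its standard error, in INA6 and JJN3 (n = 3 per arm). BTG2 (−1.22 and −0.56) and ZFP36 (−0.96 and −0.51) lie far below 0 in both lines, and TOB1 and ZFP36L2 lie on opposite sides of 0.

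Across libraries, BTG2 and ZFP36 followed each other mainly through the difference between arms. Pearson's r between them was 0.994 over the 6 INA6 libraries and 0.992 over the 6 JJN3 libraries. These points share the knockdown contrast that chose both genes. After the mean of each arm was removed, r over the 12 libraries was 0.510, and in the INA6 knockdown replicate 3 was the lowest for BTG2 and the highest for ZFP36. TOB2 ran against ZFP36, with r of −0.980 in INA6 and −0.987 in JJN3, and −0.828 within arms. BTG1 and BTG2 gave 0.872 and 0.986, and 0.742 within arms. TOB1 followed BTG2 in INA6 (0.992) and ran against it in JJN3 (−0.813), with 0.218 within arms. TOB1 followed ZFP36L2 in both (0.861 and 0.980), with 0.446 within arms. These correlations are descriptions over libraries that share an arm.

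**Figure D3:**
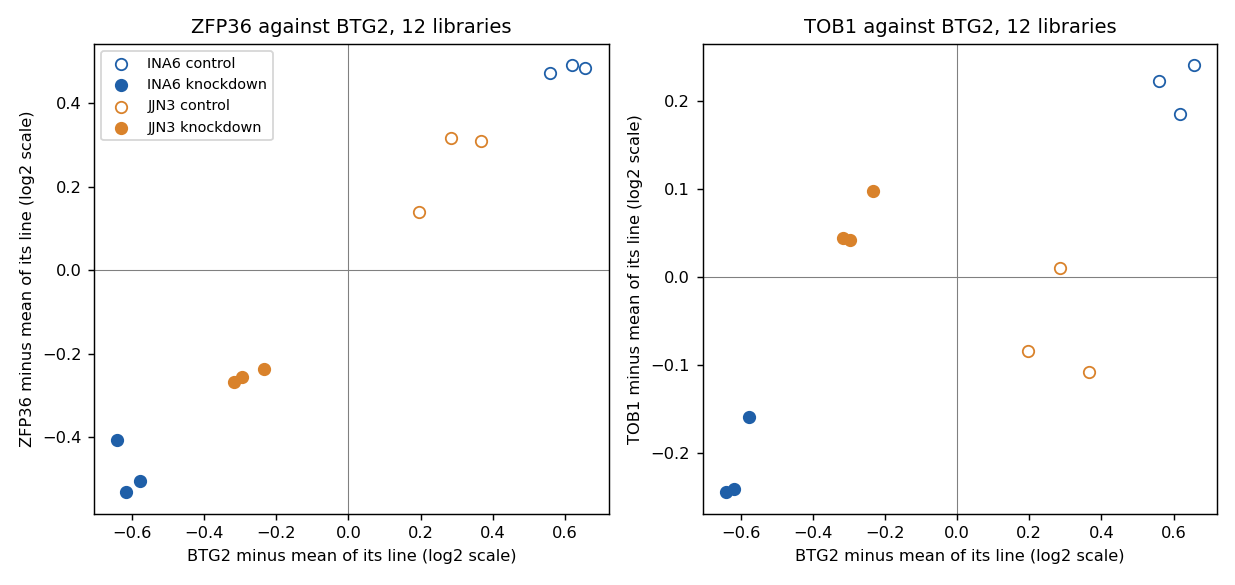
ZFP36 (left) and TOB1 (right) against BTG2 in the same 12 libraries, each as its rlog level minus the mean of its line (log2 scale), with lines by colour and knockdown libraries filled. ZFP36 follows BTG2 in both lines (r 0.994 and 0.992), and TOB1 follows it in INA6 (0.992) and runs against it in JJN3 (−0.813).

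The genes most like each member were found by Pearson's r over the 12 libraries after centring each line, among 9305 genes with a mean of at least 5 in both lines. For BTG2 they were NUAK2 (0.994), GNG12 (0.994) and ZFP36 itself (0.992). For ZFP36 they were BTG2 (0.992), GNG12 (0.987) and WWC3 (0.986). For BTG1 they were SNX30 (0.980), EXOC1 (0.978) and FBXW2 (0.975), and for BTG3 the small nucleolar RNA host GAS5 (0.984), the clathrin heavy chain CLTC (0.981) and SKIL (0.980). TOB1 was closest to the cytokine signalling inhibitor SOCS3 (0.984), HDAC9 (0.975) and TCAF2 (0.974). TOB2 was closest to the ribosomal protein gene RPL23 (0.985), PPP2R1B (0.984) and the chaperone gene HSPA8 (0.983). ZFP36L1 and ZFP36L2 had few close genes: the nearest were C22orf23 (0.955), CLEC16A (0.916) and NR2C1 (0.909) for the former, and WDR91 (0.939), SGPP1 (0.925) and CPEB2 (0.908) for the latter. Only 4 and 7 genes exceeded an r of 0.9 with ZFP36L1 and ZFP36L2, against 441 for BTG2, 464 for ZFP36, 670 for TOB2, 267 for BTG1, 184 for BTG3 and 143 for TOB1. The libraries share line and arm, and genes with a large knockdown difference have a high r with each other.

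The tested genes listed for CCR4-NOT and other deadenylation had differences from −0.33 to 0.49 in INA6 and from −0.48 to 0.49 in JJN3. The list holds CCR4-NOT, with which BTG, TOB and ZFP36 proteins work, and also genes that are not deadenylases, such as PABPC1. Among 23 tested genes of CCR4-NOT and other deadenylation in INA6, 7 rose, 4 fell and the median difference was 0.05. In JJN3, 7 of 22 rose, 8 fell and the median was −0.02. PAN2, the catalytic subunit of the PAN2-PAN3 deadenylase, fell in both lines, with differences of −0.33 (SE 0.0541, limma adjusted p = 3.62e-05) and −0.48 (SE 0.0534, adjusted p = 1.55e-08). The circadian gene NOCT, of the same enzyme family as the CCR4 deadenylases, rose by 0.49 (adjusted p = 3.19e-06) in INA6 and 0.48 (adjusted p = 5.66e-08) in JJN3, and TOE1, a nuclear deadenylase, rose by 0.41 (adjusted p = 2.27e-06) and 0.49 (adjusted p = 9.69e-08). CNOT8, a deadenylase that BTG and TOB proteins bind, fell in JJN3 from 9.00 to 8.76, a difference of −0.25 (adjusted p = 6.92e-05). It was also lower in INA6, with a difference of −0.16 (adjusted p = 0.0152). CNOT7, which they bind as well, rose in INA6 by 0.19 (adjusted p = 0.00199) and was not called in JJN3 (−0.04, adjusted p = 0.420). CNOT9 rose in both lines, by 0.23 (adjusted p = 0.000117) in INA6 and 0.17 (adjusted p = 0.00124) in JJN3. Of the 7 genes of this list called in both lines, 3 rose, 3 fell and TUT7 went in opposite directions.

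Among 20 genes of decapping and the decay that follows it, 6 rose and 2 fell in INA6 (median 0.09), and 4 rose and 6 fell in JJN3 (median 0.0038). The INA6 count of 8 fell to 4 without control replicate 1, to 5 without control replicate 2 or knockdown replicate 2, and to 5 with no minimum mean. In INA6 the helicase DDX6, which CCR4-NOT binds, rose by 0.38 (adjusted p = 8.19e-07) and LSM7 by 0.38 (adjusted p = 0.000221), with LSM1 at 0.22 (adjusted p = 0.00235). DDX6 also rose in JJN3 (0.17, adjusted p = 0.000701), where LSM7 and LSM1 were not called. In JJN3 the decapping enzymes NUDT16 and DCP2 fell, with differences of −0.44 (adjusted p = 3.56e-09) and −0.35 (adjusted p = 4.48e-08), and the exonuclease XRN1 fell by 0.22 (adjusted p = 0.000177). XRN1 was also lower in INA6 (−0.12, adjusted p = 0.0418), where NUDT16 and DCP2 were not called. The decapping scaffold EDC4 rose in both, by 0.18 (adjusted p = 0.00201) and 0.20 (adjusted p = 0.000335).

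Of 19 exosome and Ski genes, 8 rose and 1 fell in INA6 (median 0.10), and 7 rose and 3 fell in JJN3 (median 0.06). The 5 genes of this list called in both lines all rose. EXOSC2 rose by 0.28 (adjusted p = 3.41e-05) and 0.32 (adjusted p = 7.36e-07), and the exosome nuclease DIS3 by 0.26 (adjusted p = 0.000196) and 0.19 (adjusted p = 0.00115). EXOSC8 rose by 0.28 in INA6 (adjusted p = 0.00153) and by 0.14 in JJN3 (adjusted p = 0.0145). In JJN3 EXOSC4 rose by 0.48 (adjusted p = 2.70e-09) and the exosome helicase MTREX by 0.18 (adjusted p = 0.00805). Both were also called in INA6, at 0.24 (adjusted p = 0.00944) and 0.16 (adjusted p = 0.0472), with arms that overlapped. The Ski subunit TTC37 fell by 0.20 in INA6 (adjusted p = 0.00503), a call that was lost without control replicate 1 (−0.15, adjusted p = 0.0504). The INA6 count of 9 fell to 5 without knockdown replicate 2, and the JJN3 count of 10 to 6 without control replicate 2 or control replicate 3.

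Of 26 other RNA-binding proteins that set mRNA stability, 13 rose and 0 fell in INA6 (median 0.11), with 8 called without control replicate 1. The share called was near the 48.6% of all genes tested, of which 24.7% were higher and 24.0% lower. In JJN3, 10 of 27 rose and 3 fell (median 0.06), and the 7 genes called in both lines all rose. UPF1, the helicase of nonsense-mediated decay, rose by 0.40 (adjusted p = 2.29e-07) and 0.20 (adjusted p = 0.000217). The microRNA effector gene TNRC6A rose in INA6 by 0.41 (adjusted p = 4.04e-07) and was not called in JJN3 (0.09, adjusted p = 0.135). TNRC6C rose in both lines, by 0.20 (adjusted p = 0.0157) in INA6 and 0.35 (adjusted p = 1.24e-06) in JJN3. CELF1 rose in INA6 by 0.25 (adjusted p = 9.56e-05) and was not called in JJN3 (−0.01, adjusted p = 0.849). KHSRP, which like ZFP36 binds AU-rich elements, rose by 0.24 (adjusted p = 0.000131) in INA6 and 0.15 (adjusted p = 0.00140) in JJN3. The methyladenosine readers YTHDF2 and YTHDF3 rose in both lines. In INA6 they rose by 0.15 (adjusted p = 0.00943) and 0.29 (adjusted p = 0.000348). In JJN3 they rose by 0.26 (adjusted p = 4.93e-06) and 0.19 (adjusted p = 0.000577), and YTHDF3 was not called there after quantile normalisation (0.08, adjusted p = 0.123).

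ZFP36 proteins are switched off by phosphorylation through the p38 and MK2 kinases and on by the phosphatase PP2A. Of 16 genes of that pathway, 5 rose and 4 fell in INA6 (median 0.06), and 4 rose and 2 fell in JJN3 (median 0.05). DUSP1, a phosphatase that shuts p38 off, fell in INA6 from 9.11 ± 0.08 to 8.12 ± 0.16 (SD, n = 3), a difference of −0.99 (SE 0.0678, limma adjusted p = 3.77e-10). PPP2CA, the PP2A catalytic subunit, rose by 0.29 (adjusted p = 1.50e-05) in INA6 and 0.21 (adjusted p = 0.000168) in JJN3. In INA6 AKT1 fell by 0.30 (adjusted p = 3.74e-05) and YWHAB rose by 0.23 (adjusted p = 0.000167). YWHAB also rose in JJN3 (0.13, adjusted p = 0.00803), where AKT1 was not called. In JJN3 the p38 activator MAP2K6 fell by 0.36 (adjusted p = 1.10e-06) and the p38 beta gene MAPK11 fell by 0.29 (adjusted p = 9.70e-05), while MAPKAPK3 rose by 0.22 (adjusted p = 0.000165). In INA6 MAPK11 rose, by 0.28 (adjusted p = 0.000628).

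Known target mRNAs of the ZFP36 family that could be tested did not move one way. TNF, CSF2, IL1B, IL2, IL3, IL6, CXCL1, CXCL2, CXCL8, CCL3 and LIF were below the minimum mean in both lines and were not tested. CCL2 was below it in JJN3. Of 37 listed targets, 21 were tested in INA6, of which 4 rose and 8 fell (median −0.05), and 22 in JJN3, of which 12 rose and 7 fell (median 0.15). Of 10 called in both lines, 2 rose, 3 fell and 5 went in opposite directions (BIRC3, CDKN1A, FOS, NFKBIZ and PIM1). The arms of BIRC3 overlapped in JJN3 (−0.13, adjusted p = 0.0215). The chemokine gene CCL2 rose in INA6 from 6.28 ± 0.02 to 8.31 ± 0.36 (SD, n = 3), by 2.02 (SE 0.107, limma adjusted p = 4.78e-12). MYC fell in both lines, with differences of −0.52 (adjusted p = 7.66e-10) and −0.40 (adjusted p = 4.02e-10). In JJN3 the Notch ligand gene DLL4 rose by 1.15 (adjusted p = 6.61e-15), the kinase gene PIM1 by 0.78 (adjusted p = 1.41e-15) and the cell cycle factor E2F1 by 0.51 (adjusted p = 8.24e-10). E2F1 also rose in INA6 (0.29, adjusted p = 0.000786). The libraries measured mRNA levels and not half-lives.

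Of the other immediate early genes, the class to which BTG2 and ZFP36 belong, more fell than rose in INA6, and more rose than fell in JJN3. In INA6, 12 of 20 fell and 3 rose (median −0.37), and in JJN3, 4 of 21 fell and 10 rose (median 0.08). FOS fell in INA6 from 11.15 ± 0.08 to 9.66 ± 0.16 (SD, n = 3), a difference of −1.49 (SE 0.0625, limma adjusted p = 1.33e-13), and EGR1 from 12.07 ± 0.18 to 10.17 ± 0.25, a difference of −1.90 (SE 0.0856, adjusted p = 3.51e-13). JUNB fell by 0.98 (adjusted p = 1.42e-11) and IER2 fell by 0.81 (adjusted p = 4.04e-11) in INA6. In JJN3 the stress factor ATF3 rose by 1.13 (adjusted p = 1.83e-13), FOSB by 0.88 (adjusted p = 4.83e-10), NR4A1 by 0.72 (adjusted p = 1.61e-09) and SGK1 by 0.56 (adjusted p = 1.89e-08). Of 11 genes called in both lines, 4 fell, 2 rose and 5 went in opposite directions (EGR2, FOS, KLF6, NR4A1 and SGK1). The arms of KLF6 overlapped in JJN3 (0.17, adjusted p = 0.00462). The 4 that fell in JJN3, as BTG2 and ZFP36 did there, were DUSP2 (−0.25, adjusted p = 0.000298), JUNB (−0.17, adjusted p = 0.00760), JUND (−0.12, adjusted p = 0.0178) and IER2 (−0.12, adjusted p = 0.0469). Without control replicate 1 the calls of JUNB (−0.10, adjusted p = 0.119), JUND (−0.11, adjusted p = 0.0728) and IER2 (−0.03, adjusted p = 0.580) were lost. JUND was also not called without control replicate 2 or knockdown replicate 2, nor IER2 without knockdown replicate 1 or knockdown replicate 2, and neither with median centring. Without a variance trend both calls were lost as well (adjusted p = 0.0548 for JUND and 0.116 for IER2). IER2 was also not called with no minimum mean (adjusted p = 0.114) or a minimum of 5 (adjusted p = 0.0522).

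**Figure D4:**
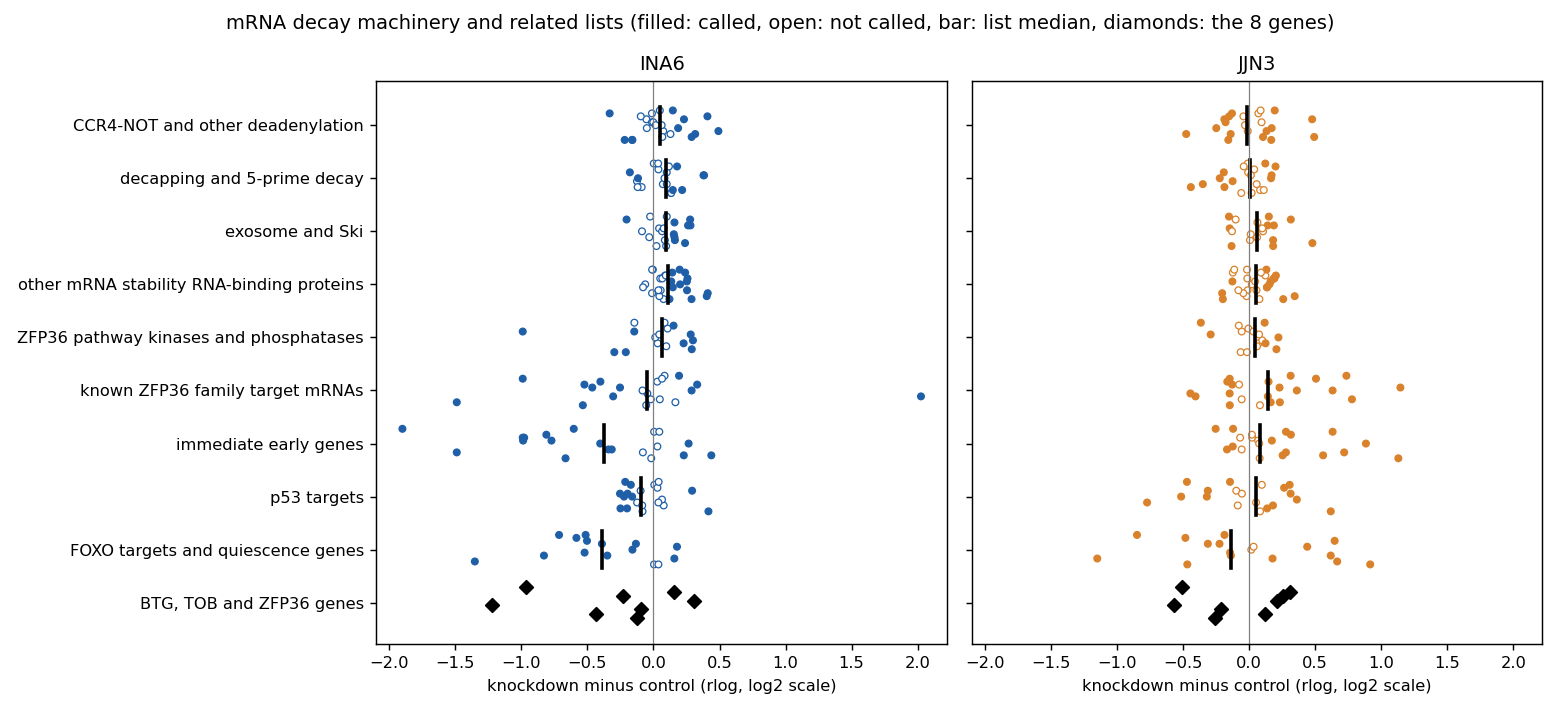
Knockdown minus control difference (log2 scale) of each tested gene of the 9 pathway lists, by line, with called genes filled, a bar at the median of each list and the 8 BTG, TOB and ZFP36 genes as diamonds. Immediate early genes lie mostly below 0 in INA6 (median −0.37) and around 0 in JJN3 (median 0.08).

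BTG2 is a p53 target, and of the listed p53 targets 2 of 20 rose and 8 fell in INA6 (median −0.09). AEN rose by 0.42 (adjusted p = 1.59e-07) and BAX by 0.29 (adjusted p = 0.000164), while CDKN1A, the cell cycle inhibitor p21, fell by 0.25 (adjusted p = 0.000656) and GADD45A fell by 0.25 (adjusted p = 0.000416). In JJN3, 7 of 19 rose and 6 fell (median 0.05), with AEN up by 0.62 (adjusted p = 1.41e-12), and BBC3, ZMAT3 and CCNG1 changed by −0.77 (adjusted p = 2.30e-11), −0.51 (adjusted p = 3.42e-10) and −0.47 (adjusted p = 2.26e-10). ZMAT3 (−0.20, adjusted p = 0.00660) and CCNG1 (−0.21, adjusted p = 0.00343) were also lower in INA6, where BBC3 was not called. CDKN1A, GADD45A and TP53INP1 were called in opposite directions in the lines. The JJN3 call of GADD45A (0.14, adjusted p = 0.0488) lay close to the threshold, and its arms overlapped there.

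BTG1 is a known target of FOXO factors, and of the listed FOXO targets and quiescence genes more fell than rose in both lines. In INA6, 11 of 15 fell and 2 rose (median −0.39), and in JJN3, 9 of 17 fell and 6 rose (median −0.14). KLF2, a quiescence factor of lymphocytes, fell in INA6 from 11.15 ± 0.01 to 9.80 ± 0.27 (SD, n = 3), a difference of −1.35 (SE 0.0787, limma adjusted p = 2.94e-11). In JJN3 KLF2 rose by 0.65 (adjusted p = 4.64e-11), and of the 11 genes of the list called in both lines it was the one with opposite directions, beside 8 that fell and 2 that rose. TSC22D3, TXNIP and the pocket protein gene RBL2 also fell in INA6, with differences of −0.83 (adjusted p = 1.70e-09), −0.71 (adjusted p = 3.26e-08) and −0.52 (adjusted p = 6.56e-08). In JJN3 TXNIP fell by 1.15 (adjusted p = 3.78e-18) and DDIT4 fell by 0.85 (adjusted p = 8.86e-13), while BCL6 rose by 0.92 (adjusted p = 5.05e-13) and IRS2 by 0.67 (adjusted p = 3.82e-12). RBL2 also fell in JJN3 (−0.47, adjusted p = 4.02e-10) and DDIT4 also fell in INA6 (−0.51, adjusted p = 1.25e-07), while TSC22D3 was not called in JJN3. The lists share genes: FOS and DUSP1 are both ZFP36 targets and immediate early genes, and DUSP1 is also in the kinase and phosphatase list. CDKN1A, PLK2 and PLK3 are both ZFP36 and p53 targets, and SESN1 is in the p53 and FOXO lists.

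For the pathway genes the difference between lines could be tested, and 72 of 169 differed at an adjusted p below 0.05, beside 30.0% of the 11137 genes tested in both lines. The difference was higher in INA6 for 31 of them and higher in JJN3 for 41. The lists were chosen with earlier results of these data known, so nothing about the pathway as a set is read from this share. KANSL2 was at 76.4% of control in INA6 and 43.1% in JJN3, and the lines were normalised separately. Line, knockdown depth and scale therefore cannot be told apart in these differences. The smallest adjusted p belonged to FOS, with an INA6 minus JJN3 difference of −2.12 (SE 0.1004, adjusted p = 1.50e-23, from the limma estimates of both lines), and to KLF2, with −2.00 (SE 0.0951, adjusted p = 1.50e-23). The next were PIM1 (−1.24), EGR1 (−1.97), EGR2 (−1.27) and DLL4 (−1.10). In INA6 the DLL4 means were 3.17 in control and 3.21 in knockdown, near the minimum mean of 3. The JJN3 means of EGR2 were also low, at 4.57 and 4.85. Because rlog values understate changes of genes with few reads, these line differences may partly reflect low levels.

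The nearest tested protein-coding genes were described within 350 kb of each member, a limit chosen after the values were seen. There were 12 such neighbours of 7 members and none of BTG1. In INA6, 3 rose, 3 fell and 6 were not called, and in JJN3, 2 rose, 4 fell and 6 were not called. Around ZFP36, MED29 lies 6.2 kb away and had differences of 0.10 (adjusted p = 0.0722) in INA6 and −0.02 (adjusted p = 0.754) in JJN3. PLEKHG2, 3.3 kb away on the other side, had 0.04 (adjusted p = 0.526) and −0.39 (adjusted p = 2.81e-08). ZFP36 itself was at 51.3% of control in INA6, where neither of these neighbours was called. It was at 70.3% in JJN3, where PLEKHG2 was called lower and MED29 was not called. Whether ZFP36 and its neighbours changed together was not tested. Around BTG2, PPFIA4 lies 226.8 kb away and had differences of −0.96 (adjusted p = 8.38e-11) in INA6 and −0.04 (adjusted p = 0.541) in JJN3, and ATP2B4 lies 317.2 kb away and changed by −0.59 (adjusted p = 1.38e-08) and −0.37 (adjusted p = 1.56e-07). PHF5A, 12.9 kb from TOB2, rose with it, by 0.28 (adjusted p = 5.71e-05) and 0.15 (adjusted p = 0.0112), the latter lost without JJN3 control replicate 2 (0.13, adjusted p = 0.0575).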

How the data were processed

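The titles put 12 RNA libraries into 4 groups. Polyadenylated RNA was selected on poly-T beads and primed at random, per the labels' protocols. Reads were processed with DESeq2, HTSeq, Bowtie2 and Trim Galore on hg38, with no version named, per the submitters' processing notes. What the authors deposited is, for each line, a table of rlog values, a log2 scale. The rlog transformation scales by size factors and understates changes of genes with few reads. No counts were given, so depth is unknown.

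A gene was tested in a line if its mean over the 6 libraries reached 3. The test was limma 3.58.1 in R 4.3.3 (lmFit, eBayes with a trend, no block, two-sided, Benjamini-Hochberg over all genes tested). Genes with an adjusted p below 0.05 were called. SDs and SEs are over libraries, n = 3 per arm. The difference between lines was the difference of the 2 within-table differences, with summed variances and degrees of freedom. The percent of control is 2 to the power of the rlog difference. The fit was tested on simulated data.

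The members and lists were chosen with earlier results of these data known. Named were all members, KANSL2, up to 4 called genes with the smallest p per list and line, the 6 pathway genes with the smallest adjusted p between lines, and the 3 genes most like each member. Genes listed in opposite directions, the markers given with values, the immediate early genes that fell in JJN3 and the neighbours were named after their values were seen. Alternatives were median centring, quantile normalisation, a replicate block, no minimum mean or one of 5, eBayes without a trend, and leaving out each library.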

Additional observations from a re-analysis of the deposited data

Results flagged for a closer look

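The knockdown minus control difference of several pathway genes differed between the 2 lines, by the test on the limma estimates (n = 3 per arm). KANSL2 was at 76.4% of control in INA6 and 43.1% in JJN3, and the lines were normalised separately. Line, knockdown depth and scale therefore cannot be told apart here. The INA6 minus JJN3 difference was −2.12 for FOS (adjusted p = 1.50e-23), −2.00 for KLF2 (adjusted p = 1.50e-23), −1.24 for PIM1 (adjusted p = 3.42e-22), −1.97 for EGR1 (adjusted p = 7.11e-20), −1.27 for EGR2 (adjusted p = 2.90e-16) and −1.10 for DLL4 (adjusted p = 2.97e-16). DLL4 was near the minimum mean in INA6 (3.17 in control and 3.21 in knockdown), and EGR2 was low in JJN3 (4.57 and 4.85).

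TOB1 (−0.55) and ZFP36L2 (−0.49) were lower in every INA6 knockdown library than in every INA6 control and higher in every JJN3 knockdown library than in every JJN3 control. Over all genes tested in both lines, 5.53% had arms that were apart in opposite directions. The JJN3 gaps were only 0.0321 for TOB1 and 0.0491 for ZFP36L2, and the JJN3 call of TOB1 was lost in 5 of 12 alternatives. The difference between lines was not tested for either gene.

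Of the 12 genes within 350 kb of members, 7 also differed between lines, beside 30.0% called over all genes tested in both. The other 5 (SPAG9, TEF, PHF5A, MED29 and THADA) were not called. The limit was chosen after the values were seen and leaves out ATP2B1, EEA1, USP25 and MTA3. Nothing is therefore read from this share. The INA6 minus JJN3 difference was −0.93 for PPFIA4 (adjusted p = 8.47e-14) and −0.21 for ATP2B4 (adjusted p = 0.0167), the neighbours of BTG2. It was 0.47 for LUC7L3 (adjusted p = 4.82e-08) beside TOB1, 0.43 for PLEKHG2 (adjusted p = 6.37e-07) beside ZFP36 and 0.21 for C21orf91 (adjusted p = 0.0329) beside BTG3. Beside ZFP36L1 it was 0.25 for RAD51B (adjusted p = 0.0108) and −0.18 for ACTN1 (adjusted p = 0.0211).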

How the results depend on the processing

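All 192 member differences, for 8 genes in 2 lines under 12 alternatives each, kept their direction. They moved by more than 1 SD in 11 cases, all with quantile normalisation. The calls that changed are those of BTG1 and BTG3 in INA6, TOB1 in JJN3 and ZFP36L1 in INA6. The number of genes called was 6084 in INA6 (5037 to 6094 with each library left out in turn) and 6264 in JJN3 (5331 to 6080), and 3342 differed between lines (2724 to 3435). The called decapping genes in INA6 numbered 8, and 5 with no minimum mean, with a range of 4 to 11 over the libraries left out. The exosome and Ski genes called ranged from 5 to 8 in INA6 and from 6 to 9 in JJN3, and the other RNA-binding proteins in INA6 from 8 to 14. No result reversed.

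The replicate numbers were not used to pair libraries. The correlation of deviations of same-numbered control and knockdown libraries was −0.18, −0.07 and −0.30 in INA6 and 0.005, −0.01 and 0.002 in JJN3. With the replicate number as a block, 5626 genes were called in INA6, 6205 in JJN3 and 2975 between lines. The called decapping genes in INA6 then numbered 5, and BTG1 and BTG3 in INA6 and IER2 in JJN3 were not called.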
